A study of Mus musculus with 31 samples.

Results

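Bulk RNA-seq of the masseter muscle (MM), the large chewing muscle of the jaw, was compared between mice given the high dose of collagenase and mice given vehicle, at the last time point that was sequenced. The comparison holds 7 of the 31 libraries of the series, 4 of them at 12d after 10U collagenase and 3 from vehicle-injected mice. All mice were adult male C57BL/6J animals without transgenes. Collagenase type 2, a crude bacterial enzyme preparation that cuts native collagen, was injected into the left MM at 10U, and the vehicle was PBS. The sample labels call the late group 12d, whereas the description of the study calls it 14d, and the label is used here. The day on which the vehicle MM was collected and the hour of collection of any library are not given in the sources used here. The whole MM was dissected with as little tendon as possible, so a library holds RNA of muscle fibers, nerve, vessels, connective tissue and whatever gland, skin or bone came with them, and fewer cells of a type and less RNA per cell cannot be told apart. The labels number the libraries but do not tie each one to an animal, so that p-values measure the spread between these libraries. Further 10U libraries at 6d (n = 3) and 2d (n = 4), 2 groups given 0.2U collagenase that the labels call 1C and RPC (n = 4 each), and 3 vehicle libraries of a separate experiment with complete Freund's adjuvant (CFA vehicle) were used beside this comparison. In the study, this late group was collected after the mechanical hypersensitivity caused by 10U collagenase had resolved.

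Collagenase degrades the connective tissue around fibers and vessels, and injured fibers then die and are replaced. In a repairing muscle, neutrophils arrive first and macrophages follow, satellite cells proliferate and fuse, and the new fibers pass through a phase in which they express embryonic and neonatal myosins and fetal acetylcholine receptor subunits before the adult program returns. The comparison asked what of this program, and what else, was still different from vehicle at 12d.

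Depth was 14843778 to 19759399 counted reads in the 4 libraries of 12d and 21284802 to 23862787 in the 3 vehicle libraries. The test covered the 14176 genes that reached 10 counts in 3 or more of the 7 libraries. The spread between libraries of a group was wide, with a biological coefficient of variation of 36.1%. The defining genes of skeletal muscle, Acta1, Ckm, Mb, Ttn, Myh4 and Des, were high in every library, as in Acta1 at 20193 to 40615 CPM (counts scaled to library size) in vehicle and 11591 to 29916 CPM at 12d. Their groups overlapped, and none of them passed the test. Libraries within a group were not alike. Transcripts of 23 salivary gland genes summed to 153 CPM in vehicle replicate 1, to 166602 CPM in vehicle replicate 2 and to 47943 CPM in vehicle replicate 3, against 74.9 to 974 CPM at 12d. Replicate 4 of 12d stood apart from the other 3 in its muscle repair, macrophage and glycolysis genes, as given below. Leaving out single libraries moved the count of called genes strongly, and the values are given at the end.

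Before the genes were read, those were set apart that lay above, or below, all 20 libraries outside 10U in every one of the 11 libraries of 10U. These were 96 genes on the high side and 53 on the low side. Of these, 90 and 51 were tested, which is 141 of 14176 genes (0.995%). Since this rule uses the same libraries as the comparison, the genes it removed are described here with no test. The largest differences on the high side were those of C230091D08Rik, at 0 CPM in all 3 vehicle libraries and at 38.2, 35.7, 31.7 and 26.1 CPM at 12d, and of 4930429F24Rik, at 0 CPM in vehicle and at 37.7, 30.3, 27.5 and 18.2 CPM at 12d. Sh2d7, Gm5088 and Ccdc73 followed, each at or near 0 CPM in vehicle and at 2.72 to 40.9 CPM at 12d. Sco2 was the largest on the low side, at 3.83, 5.25 and 1.57 CPM in vehicle and at 0 CPM in all 4 libraries of 12d. Tmem140 went from 59.8, 48.3 and 40.8 CPM in vehicle to 1.25, 1.16, 0.700 and 0.679 CPM at 12d. Tpt1, LOC100503496 and Abhd1 completed the 5 largest on this side, each at 0.226 CPM or less at 12d.

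Overlap with a gene on the opposite strand, which the rule did not use, was more frequent among the genes set apart than among all tested genes. An exon of another gene on the opposite strand overlapped 31 of the 84 set-apart high genes with a position (36.9%) and 45 of the 50 low ones (90%), against 2069 of all 14042 tested genes with a position (14.7%). The libraries also differed in reads that the counting could not give to a single gene. These ambiguous reads were 0.641% to 0.703% of uniquely placed reads at 12d and 0.559% to 0.703% over all 11 libraries of 10U, against 0.147% to 0.198% in vehicle and 0.125% to 0.260% in the 20 other libraries, so the ranges did not overlap. In 1 such pair Serf2 was set apart low and Serinc4, which shares 2296 bp of exon with it, high. The libraries were stranded, but the strand setting of the counting is not given in the sources used here, and without it reads of a gene and of its antisense partner cannot be told apart. Its part in these values was not tested. At the edge of the rule, Tia1 was just inside, with 31.1 CPM in both the lowest 10U and the highest other library to 3 digits. Atcay was just outside, with 0.912 CPM in its lowest 10U library against 1.17 CPM in the highest CFA vehicle. On the low side Thyn1 and Ppib were also just outside. Thyn1 was at 9.48 CPM in its highest 10U library against 9.38 CPM in the lowest 0.2U RPC library. Ppib was at 50.4 CPM in its highest 10U library against 49.1 CPM in the lowest CFA vehicle.

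**Figure D1:**
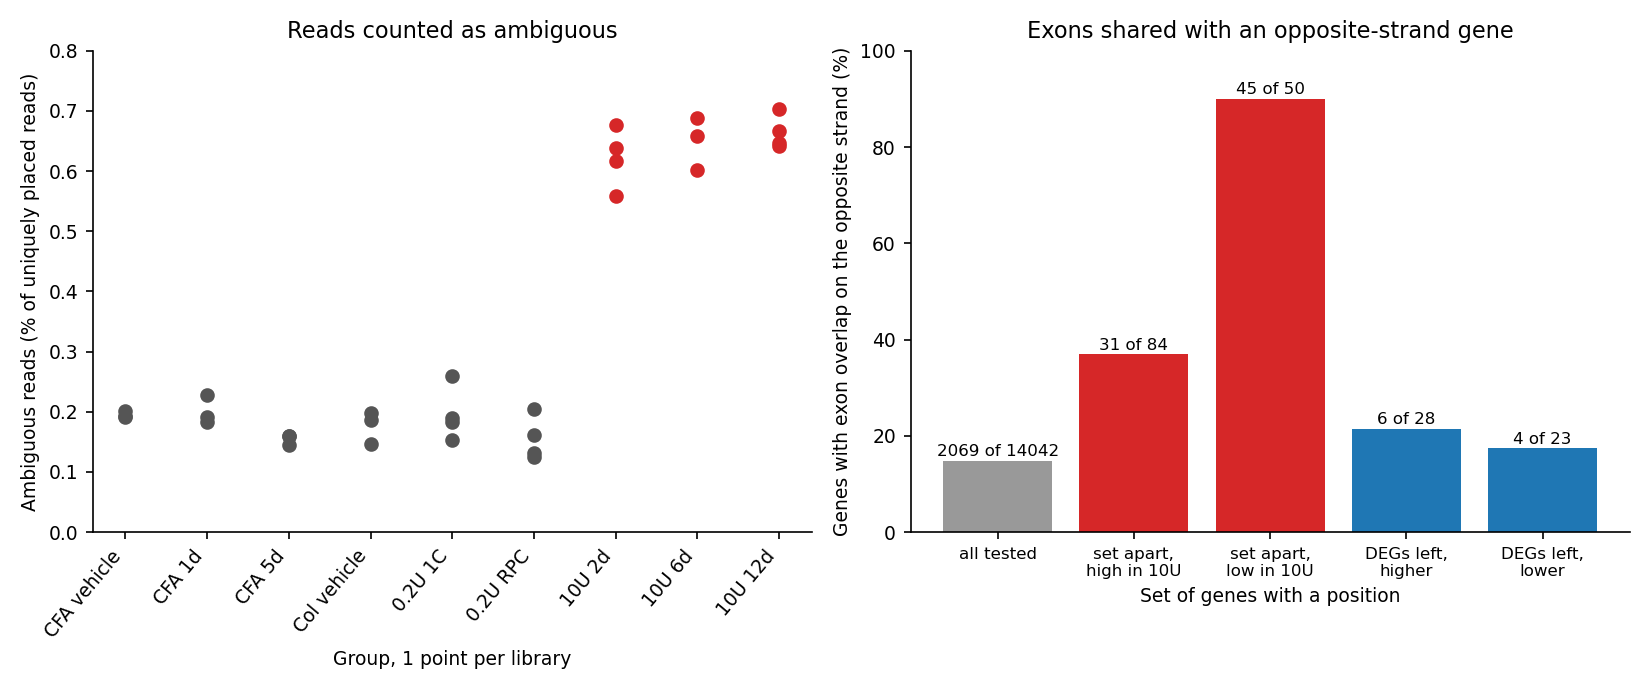
Left, percent of uniquely placed reads that the counting marked as ambiguous, 1 point per library by group. The 11 libraries of 10U lie at 0.559% to 0.703% and the 20 others at 0.125% to 0.260%. Right, percent of genes in each set whose exons overlap an exon on the opposite strand, from 14.7% of all tested genes to 90% of the tested genes set apart low.

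Differentially expressed genes (DEGs) were taken at an adjusted p under 0.05, a fold change above 2 and a mean RPKM above 1 in at least 1 of the groups, here with edgeR's quasi-likelihood test and Benjamini-Hochberg adjustment over all tested genes. Of all 14176 genes, 66 were up-regulated (0.466%) and 48 down-regulated (0.339%). Of these 114 DEGs, 63 were genes set apart. Among the 14035 genes left, 28 were up-regulated (0.200%) and 23 down-regulated (0.164%). In all 51 of them the 4 libraries of 12d lay on one side of the 3 vehicle libraries, which held for 17.0% of all tested genes, and all 51 were among the 191 (1.35%) and 196 (1.38%) genes that DESeq2 called up and down. The call rested on few libraries, and only Dbp, Ypel2 and Calcrl were called in all 7 fits that left out 1 library. Amelx, Cplx3 and Mad1l1 were called in none of these fits, some of which did not test Amelx and Cplx3. Of the 28 up-regulated DEGs, 24 lay above the CFA vehicle libraries as well, and 17 lay above every one of the 20 libraries outside 10U. Of the 23 down-regulated DEGs, 7 lay below both groups of vehicle. All folds below are on the log2 scale, 12d over vehicle, and all levels are CPM.

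**Figure D2:**
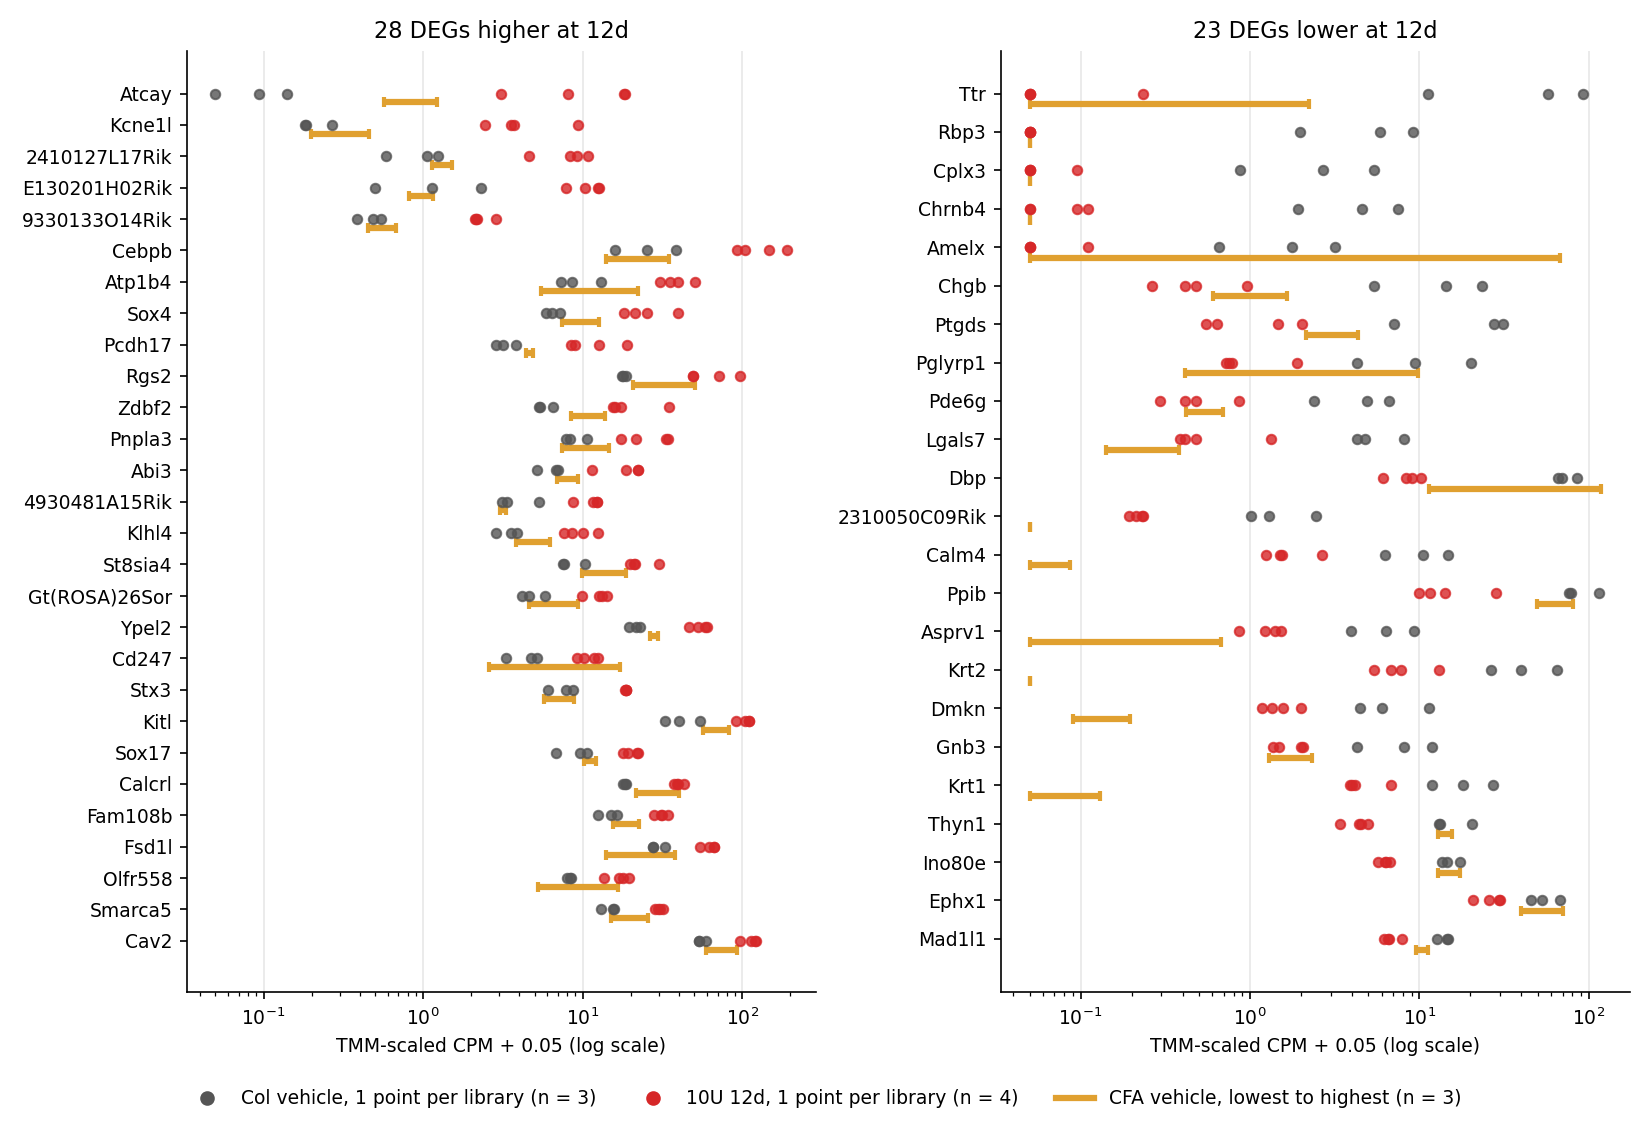
CPM plus 0.05 on a log axis for the 28 up-regulated and 23 down-regulated DEGs that were not set apart, with 1 grey point per vehicle library, 1 red point per library of 12d, and a yellow bar from the lowest to the highest CFA vehicle library. Red and grey points do not overlap in any of the 51 genes, and the yellow bar lies under the red points for 24 of the 28 up-regulated genes.

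Among the up-regulated DEGs were genes of transcription control. Cebpb, a bZIP factor of inflammation, fat cell formation and macrophage-dependent muscle repair, measured 25.4, 38.2 and 16.0 CPM in vehicle and 104, 191, 147 and 92.5 CPM at 12d. Every library of 12d was above the highest vehicle library by more than the whole vehicle range. Cebpb rose by 2.37 ± 0.36 (SE; edgeR adjusted p = 0.0232, from 6.54e-09 to 0.130 over the alternatives), and it was at 13.9 to 34.8 CPM in CFA vehicle. At 2d it was at 174 to 308 CPM and at 6d at 19.3, 29.1 and 45.2 CPM, so that 6d lay with vehicle and both 2d and 12d lay above it. An exon of Tmem189 on the opposite strand overlaps Cebpb by 312 bp and Tmem189 itself had a log2 fold of -0.20. Its relative Cebpd measured 17.1, 19.4 and 16.4 CPM in vehicle and 23.1, 44.8, 35.8 and 34.6 CPM at 12d, and did not pass (1, edgeR adjusted p = 0.0846).

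Sox4, a factor of progenitor cells, measured 7.19, 5.85 and 6.40 CPM in vehicle and 21.3, 18.0, 25.3 and 39.5 CPM at 12d. The groups were separate, and the 3 libraries of 6d were higher still, at 41.1, 40.7 and 46.7 CPM. Sox4 rose by 2.04 ± 0.295 (SE; edgeR adjusted p = 0.0197). Sox17, a factor of arterial endothelium that was read after its values were seen, measured 9.54, 10.6 and 6.71 CPM in vehicle and 21.8, 19.1, 22.1 and 17.8 CPM at 12d, and rose by 1.21 ± 0.19 (edgeR adjusted p = 0.0263). Smarca5, the ATPase of ISWI chromatin remodelers, rose by 1.06 with 13.0 to 15.8 CPM in vehicle and 28.5 to 31.9 CPM at 12d, and was also chosen after its values were seen.

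Genes of signaling and of the cell membrane formed the next group. Rgs2, which shortens signaling by Gq-coupled receptors, measured 17.6, 18.6 and 17.8 CPM in vehicle and 49.1, 97.4, 71.4 and 49.1 CPM at 12d. The vehicle libraries agreed closely and all of 12d lay above them, although CFA vehicle reached 50.3 CPM. Rgs2 rose by 1.92 ± 0.263 (SE; edgeR adjusted p = 0.0162). Atp1b4, a muscle relative of the β-subunit of the Na,K-ATPase, measured 8.5, 7.25 and 13 CPM in vehicle and 35.2, 30.6, 39.4 and 50.4 CPM at 12d, and rose by 2.04 ± 0.28 (edgeR adjusted p = 0.0162). Kcne1l, an accessory subunit of potassium channels, measured 0.218, 0.133 and 0.134 CPM in vehicle and 3.51, 2.38, 3.66 and 9.23 CPM at 12d. Its vehicle level was near the floor of counting, and it rose by 4.83 ± 0.647 (edgeR adjusted p = 0.0147). The cadherin Pcdh17 measured 3.09, 2.79 and 3.76 CPM in vehicle and 8.85, 8.44, 12.6 and 18.9 CPM at 12d (1.95 ± 0.348, edgeR adjusted p = 0.0428).

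Calcrl, the receptor that binds calcitonin gene-related peptide or adrenomedullin depending on its partner protein, was among the steadiest calls. It was chosen after its values were seen, as were the other genes of this paragraph. It measured 17.9, 18.8 and 18.4 CPM in vehicle and 38.8, 39.7, 37.1 and 43.0 CPM at 12d, so the libraries within each group were close to one another and the groups far apart. Calcrl rose by 1.14 ± 0.126 (SE; edgeR adjusted p = 0.00705, from 2.48e-14 to 0.276 over the alternatives), while CFA vehicle spanned 21.6 to 40.0 CPM and so overlapped 12d. Kitl, the ligand of the receptor Kit on mast cells and progenitors, measured 32.6, 40.2 and 54.5 CPM in vehicle and 110, 104, 110 and 91.0 CPM at 12d (1.31 ± 0.209, edgeR adjusted p = 0.0283). Cav2, a caveolin of the plasma membrane, measured 53.7, 59.1 and 53.7 CPM in vehicle and 113, 120, 122 and 96.8 CPM at 12d (1.05 ± 0.138, edgeR adjusted p = 0.0142). Both were also separate from CFA vehicle. Calca, which encodes calcitonin gene-related peptide, was at 0.0436, 0.200 and 0 CPM in vehicle and at 4.86, 3.06, 1.19 and 0.815 CPM at 12d. It was higher in 4 of 4 libraries, and did not pass the adjusted threshold against vehicle (edgeR adjusted p = 0.0782).

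The remaining up-regulated DEGs were of mixed kind. Atcay, a protein of neurons, had the largest difference, at 0.0436, 0 and 0.0895 CPM in vehicle and at 18.4, 18.1, 8.08 and 3.03 CPM at 12d. Each vehicle library held 3 counts or fewer, so that 12d was at least 76.8-fold higher (edgeR adjusted p = 0.0133, from 1.65e-11 to 0.149 over the alternatives). Atcay was nearly set apart, and it shares 432 bp of exon with 2310050B05Rik on the opposite strand. Ypel2, chosen after its values were seen, measured 22.9, 19.5 and 21.5 CPM in vehicle and 60.3, 58.6, 46.3 and 52.5 CPM at 12d, and rose by 1.38 ± 0.146 (edgeR adjusted p = 0.00546). Pnpla3, a lipase of lipid droplets and the only DEG of 37 tested genes of fat cells and lipid synthesis, measured 8.28, 7.85 and 10.5 CPM in vehicle and 34.0, 33.0, 17.4 and 21.6 CPM at 12d (1.60 ± 0.279, edgeR adjusted p = 0.0407). Its levels in both 0.2U groups, at 8.82 to 31 CPM, overlapped those of 12d. Cd247, the ζ-chain of the T cell receptor and the only DEG of 10 tested lymphocyte genes, measured 4.66, 5.12 and 3.27 CPM in vehicle and 11.8, 12.5, 9.21 and 10.1 CPM at 12d (1.36 ± 0.226, edgeR adjusted p = 0.0328). CFA vehicle spanned 2.54 to 17.0 CPM for Cd247 and overlapped both groups. Cd247 shares 3005 bp of exon with Pou2f1 on the opposite strand, and Pou2f1 had a log2 fold of -0.30.

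Transcripts without a characterized function made up part of the list. 2410127L17Rik measured 1, 1.20 and 0.537 CPM in vehicle and 10.7, 8.26, 9.21 and 4.57 CPM at 12d, and E130201H02Rik 1.09, 2.26 and 0.448 CPM in vehicle and 12.6, 12.5, 10.3 and 7.83 CPM at 12d. Both were near vehicle at 6d (1.06 to 1.95 CPM and 1.30 to 1.66 CPM) and high at 2d (4.14 to 7.18 CPM and 8.14 to 9.54 CPM). They rose by 3.20 and 3.16, and 9330133O14Rik by 2.43. The DEGs not described above, named after their values were seen, had folds from 1.08 to 1.90 (Zdbf2, Abi3, 4930481A15Rik, Klhl4, St8sia4, Gt(ROSA)26Sor, Stx3, Fam108b, Fsd1l and Olfr558). Of these Abi3, an actin regulator, shares 1708 bp of exon with Phospho1, which was set apart low. Over the 28 up-regulated DEGs left, 6 (21.4%) overlapped an exon on the opposite strand, against 14.7% of all tested genes.

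The down-regulated DEGs were headed by Dbp, a PAR-bZIP transcription factor and a direct output of the circadian clock (chr7:52960458-52965525, plus strand, mm9). Dbp measured 66.1, 85.7 and 69.3 CPM in vehicle and 8.32, 10.2, 9 and 6.06 CPM at 12d. The highest library of 12d was far below the lowest of vehicle. Dbp fell by 3.11 ± 0.196 on the log2 scale (SE; edgeR adjusted p = 0.000593, from 2.95e-40 to 0.0724 over the alternatives), the smallest p of the genes left. The log2 fold stayed between -3.22 and -2.88 in all of them. CFA vehicle spanned 11.4 to 118 CPM, and against it the difference was -3.11 with an adjusted p of 0.0724. The 6d libraries measured 14.7, 12.3 and 12.9 CPM and the 2d libraries 1.20 to 8 CPM, so that all 11 libraries of 10U were below vehicle. An exon of Sphk2 on the opposite strand overlaps Dbp by 491 bp, and Sphk2 had a log2 fold of -0.41 (edgeR adjusted p = 0.316).

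Ppib, the endoplasmic reticulum cyclophilin that helps collagen fold, measured 76.6, 114 and 78.3 CPM in vehicle and 9.86, 11.4, 14.1 and 28.1 CPM at 12d. The groups were separate, and CFA vehicle at 49.1 to 81.2 CPM was above 12d as well. Ppib fell by 2.46 ± 0.371 on the log2 scale (SE; edgeR adjusted p = 0.0232), and it shares 520 bp of exon with Snx22 on the other strand. Thyn1 measured 13.1, 20.3 and 13.1 CPM in vehicle and 4.91, 3.36, 4.36 and 4.48 CPM at 12d (-1.82 ± 0.235, edgeR adjusted p = 0.0142). It shares 582 bp of exon with Vps26b on the other strand, and both Ppib and Thyn1 were nearly set apart. Ino80e, a subunit of the INO80 chromatin remodeler, measured 13.6, 14.6 and 17.3 CPM in vehicle and 5.69 to 6.63 CPM at 12d (-1.25 ± 0.182, edgeR adjusted p = 0.0197), and shares 951 bp of exon with Doc2a, which was set apart high. Mad1l1, of the spindle checkpoint, and Ephx1, a microsomal epoxide hydrolase, fell by 1.02 and 1.03 on the log2 scale. These 5 genes were chosen after their values were seen.

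Most of the other down-regulated DEGs are not genes of muscle fibers. Ttr, a carrier of thyroid hormone, measured 11.2, 92.5 and 57.3 CPM in vehicle, and 0.183 CPM in 1 library of 12d and 0 in the other 3. Vehicle was at least 344-fold higher (edgeR adjusted p = 0.00546), although CFA vehicle, at 0 to 2.17 CPM, was also below every vehicle library and reached above 12d. Rbp3, Cplx3, Pde6g and (chosen after its values were seen) Gnb3, known from photoreceptors and the retina, Chrnb4, a nicotinic receptor subunit of autonomic ganglia, and Chgb, a granin of secretory granules, had the same order in vehicle, with replicate 1 the lowest and replicate 3 the highest. Rbp3 measured 1.92, 5.79 and 9.09 CPM in vehicle and 0 CPM in all 4 libraries of 12d, at least 35.8-fold higher in vehicle (edgeR adjusted p = 0.0320). Chgb measured 5.32, 14.2 and 23.5 CPM in vehicle and 0.914, 0.428, 0.215 and 0.362 CPM at 12d, and fell by 4.87 ± 0.635 on the log2 scale (edgeR adjusted p = 0.0142). Chrnb4 was at least 29.4-fold and Cplx3 at least 18.8-fold higher in vehicle. In CFA vehicle Chrnb4, Cplx3 and Rbp3 were at 0 CPM in every library. Over both 0.2U groups Rbp3 was at 0.999 to 13.1 CPM, Chrnb4 at 0.559 to 16.0 CPM and Cplx3 at 0.233 to 6.65 CPM. In the same groups Chgb was at 3.53 to 44.2 CPM, Pde6g at 0.666 to 9.62 CPM and Gnb3 at 2.47 to 17.3 CPM. Chgb was at 0.552 to 1.61 CPM in CFA vehicle, which overlapped 12d. CFA vehicle also overlapped 12d for Pde6g (0.368 to 0.646 against 0.245 to 0.818 CPM) and Gnb3 (1.25 to 2.28 against 1.31 to 2.02 CPM). For Rbp3, Cplx3, Pde6g, Gnb3, Chrnb4 and Chgb the 2d and 6d libraries were also below every vehicle library of this comparison. Ttr was at 6.42, 13.7, 0 and 17.1 CPM at 2d, which overlapped vehicle. Of a list of photoreceptor genes chosen after these values were seen, Sag (edgeR adjusted p = 0.0197) and Gnat2 (0.0263) also had lower levels at 12d but a mean RPKM under the threshold.

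Ptgds, a prostaglandin D2 synthase of glia and meninges that was placed among pain mediators, measured 7.06, 27.7 and 31.2 CPM in vehicle and 1.97, 1.41, 0.593 and 0.498 CPM at 12d. It fell by 4.28 ± 0.649 on the log2 scale (edgeR adjusted p = 0.0232), with CFA vehicle at 2.10 to 4.32 CPM, close to 12d. Pglyrp1, a protein of neutrophil granules that binds bacterial walls, measured 4.23, 9.38 and 20.1 CPM in vehicle and 0.673, 0.734, 0.700 and 1.86 CPM at 12d (-3.47 ± 0.617, edgeR adjusted p = 0.0428). CFA vehicle spanned 0.363 to 9.75 CPM for Pglyrp1 and overlapped both groups. Amelx, the main protein of forming enamel, was at 0.610, 1.73 and 3.13 CPM in vehicle and at 0.0612 CPM in 1 library of 12d and 0 in the others, at least 11.7-fold higher in vehicle (edgeR adjusted p = 0.0242). It reached 67.9 CPM in CFA vehicle and 6383 CPM in the 0.2U groups.

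Genes of the outer skin made up a further share of the down-regulated DEGs. Lgals7, a galectin of stratified epithelia, measured 4.23, 8.11 and 4.70 CPM in vehicle and 0.337, 1.28, 0.431 and 0.362 CPM at 12d, and fell by 3.21 ± 0.541 on the log2 scale (edgeR adjusted p = 0.0349). Krt1, the keratin of differentiating epidermis, measured 11.9, 27.0 and 17.9 CPM in vehicle and 3.85, 6.73, 4.09 and 3.94 CPM at 12d, and fell by 2.00 ± 0.326 (edgeR adjusted p = 0.0315). Krt2, Dmkn, Calm4, Asprv1 and the transcript 2310050C09Rik, chosen after their values were seen, fell by 2.27 to 3.11 on the log2 scale. All 18 tested genes of the skin list were lower at 12d, 14 at an unadjusted p under 0.05 and 2 as DEGs, with a median of -2.10 against 0.0071 for all genes. Unadjusted p under 0.05 in this direction held for 7.77% of all tested genes. DESeq2 called 11 genes of the list down, against 1.38% of all tested genes. The reference decided the direction. CFA vehicle held 0 to 0.0807 CPM of Krt1 and 0 CPM of Krt2, both under 12d, and the median of the list against CFA vehicle was 0.49.

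Genes of other tissues stood beside these results in the vehicle libraries. The mean log2 CPM of the skin list was 1.48, 2.78 and 1.83 in vehicle and 0.666 to 1.03 at 12d, with Krt77 at 0 in both groups, and it was 0.108 to 0.436 in CFA vehicle. The mean log2 CPM of the salivary list was 0.850, 8.12 and 6.38 in vehicle and 0.545 to 3.07 at 12d. Among 20 tested salivary genes all were lower at 12d, 12 at an unadjusted p under 0.05 and none as a DEG, with a median of -3.90. DESeq2 called 7 of them down, against 1.38% of all tested genes. Amy1, the salivary amylase, was at 62.0, 38738 and 15441 CPM in vehicle and at 184, 70.0, 90.2 and 31.1 CPM at 12d, and its groups overlapped. Without vehicle replicates 2 and 3 the median of the salivary list was 1.83. The part of skin, gland or nerve tissue in the down-regulated DEGs was not tested.

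The clock genes were read further because of Dbp. In the mammalian clock, Clock and Arntl (Bmal1) drive Per, Cry, Nr1d1 and Dbp through E-box elements, the products of Per and Cry inhibit them, Nr1d1 represses Arntl, and the PAR-bZIP factors Dbp, Tef and Hlf act on D-box elements against the repressor Nfil3. Of 19 tested clock genes, with a median of -0.34, 1 was a DEG, 4 were higher and 5 lower at an unadjusted p under 0.05, and 2 lay above and 5 below vehicle in every library. The shares over all genes were 9.59% and 7.77% at that p, and 9.16% and 7.82% for separate groups. On the positive side, Arntl measured 30.5, 24.0 and 25.7 CPM in vehicle and 49.3, 49.0, 47.2 and 36.8 CPM at 12d, with no overlap, at 0.80 ± 0.154 (edgeR adjusted p = 0.0589). Clock was also separate, at 34.3 to 66.8 CPM in vehicle and 73.0 to 90.5 CPM at 12d. Neither passed.

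On the side of repressors and outputs, Per1 measured 86.2, 85.9 and 97.2 CPM in vehicle and 31.6, 65.0, 55.2 and 41.4 CPM at 12d (-0.87, edgeR adjusted p = 0.148). Nr1d1 measured 328, 239 and 297 CPM in vehicle and 126, 206, 142 and 61.0 CPM at 12d (-1.08, edgeR adjusted p = 0.198). Hlf measured 15.5, 15.0 and 13.6 CPM in vehicle and 8.71, 8.68, 7.27 and 4.53 CPM at 12d (-0.98, edgeR adjusted p = 0.116). These 3 and Per3 (-0.65, edgeR adjusted p = 0.283) lay below vehicle in every library without passing the adjusted threshold, as Dbp did with it. Cry1 was at 10.4 to 16.6 CPM in vehicle and 16.5 to 34.7 CPM at 12d, with an overlap of its groups (0.95, edgeR adjusted p = 0.159). Per2, Cry2, Nr1d2, Tef, Bhlhe40, Bhlhe41, Rora, Npas2, Gm129 and Nfil3 overlapped between the groups. The clock genes other than Dbp were chosen for display after their values were seen. The hour of collection was not known for either group, and its part in these values was not tested.

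**Figure D3:**
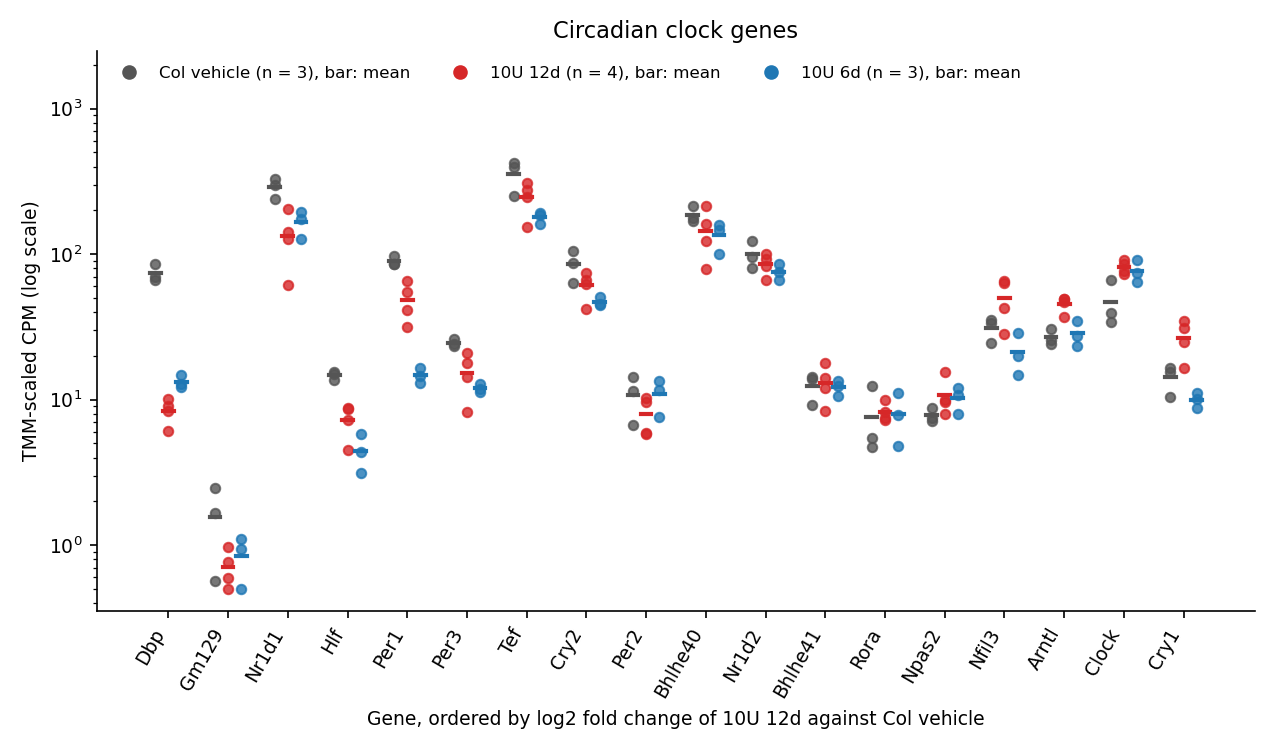
CPM on a log axis for the tested clock genes named in the text, in vehicle (n = 3), at 12d (n = 4) and at 6d (n = 3), 1 point per library with a bar at the mean. Dbp lies at 66.1 to 85.7 CPM in vehicle, 6.06 to 10.2 CPM at 12d and 12.3 to 14.7 CPM at 6d, while Per1 is lowest at 6d with 13.1 to 16.6 CPM.

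The elements through which this loop acts were looked up in the promoters of the clock genes, taken from RefSeq on GRCm38.p6 as the 250 bases before each start site, while all gene positions elsewhere are on mm9. Of the 19 genes 16 matched, Gm129 under its later symbol Ciart. The E-box CACGTG, which reads the same on both strands, was present in 5 of 16 clock genes (Per1, Cry1, Tef, Ciart and Bhlhe41), against 1854 of 27025 genes (6.86%). The D-box TTATGTAA, searched on both strands, was present in 1 (Per3), against 264 genes (0.977%). The windows of the 3 genes of these that had an unadjusted p under 0.05 are shown 5′ to 3′ on the strand of the gene, with the motif in capitals.
Per1, E-box, chr11:69098771-69098800, plus strand, 166 bases before the start: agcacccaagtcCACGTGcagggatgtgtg
Cry1, E-box, chr10:85185097-85185126, minus strand, 60 bases before the start: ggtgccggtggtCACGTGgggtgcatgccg
Per3, D-box, chr4:151044852-151044881, minus strand, 205 bases before the start: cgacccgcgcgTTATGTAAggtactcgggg
The window of Dbp held neither string of letters. Per1 and Cry1 carry the same E-box, and Per1 was lower and Cry1 higher at 12d, neither past the adjusted threshold.

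Genes of muscle repair were higher at 12d than in vehicle in most members but not to the point of passing in edgeR's test. DESeq2 called 6 genes of the list up, against 1.35% of all tested genes. Of 35 tested genes of regenerating fibers and myogenesis, 31 were higher and 4 lower, 15 were higher at an unadjusted p under 0.05 (9.59% of all genes), 8 lay above vehicle in every library (9.16% of all genes) and none was a DEG, with a median of 1.08. Gm7325 (Myomixer), which drives the fusion of myoblasts, measured 0, 0.0665 and 0 CPM in vehicle and 0.625, 0.550, 1.67 and 14.5 CPM at 12d (edgeR adjusted p = 0.120). Meg3, an imprinted noncoding RNA of muscle progenitors, measured 15.9, 20.9 and 27.8 CPM in vehicle and 53.5, 46.5, 60 and 187 CPM at 12d (2.04, edgeR adjusted p = 0.137). In both genes every library of 12d was above vehicle and replicate 4 was the highest. Myh3, the embryonic myosin heavy chain, chosen after its values were seen as were Chrng and Myog below, was at 17.3, 24.1 and 18.3 CPM in vehicle and at 8.51, 16.9, 16.1 and 161 CPM at 12d, so that replicate 4 alone was above vehicle. Without this library the median of the list was 0.48.

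Replicate 4 also decided the matrix and macrophage lists. Among 49 tested genes of matrix remodeling 40 were higher, with a median of 0.64, and among 46 genes of macrophages and monocytes 39 were higher, with a median of 0.64. Neither held a DEG, and without replicate 4 the medians were -0.04 and -0.41. The mean log2 CPM of the macrophage list was 2.66, 2.04 and 3.33 in vehicle and 2.34, 2.10, 2.82 and 4.49 at 12d. Mmp12, a macrophage elastase, measured 0.0665 to 0.179 CPM in vehicle and 0.625, 0.245, 1.29 and 6.02 CPM at 12d (edgeR adjusted p = 0.173). Clec4n (Dectin-2), a C-type lectin receptor of myeloid cells, measured 0.134 to 0.266 CPM in vehicle and 0.962, 0.367, 1.83 and 14.8 CPM at 12d (edgeR adjusted p = 0.178). Both were above vehicle in 4 of 4 libraries and highest in replicate 4. Arg1, a marker of alternatively activated macrophages, was at 0.131, 29.8 and 6.22 CPM in vehicle and at 0.215 to 1.53 CPM at 12d, and the sign of its fold turned against vehicle replicate 1 alone.

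**Figure D4:**
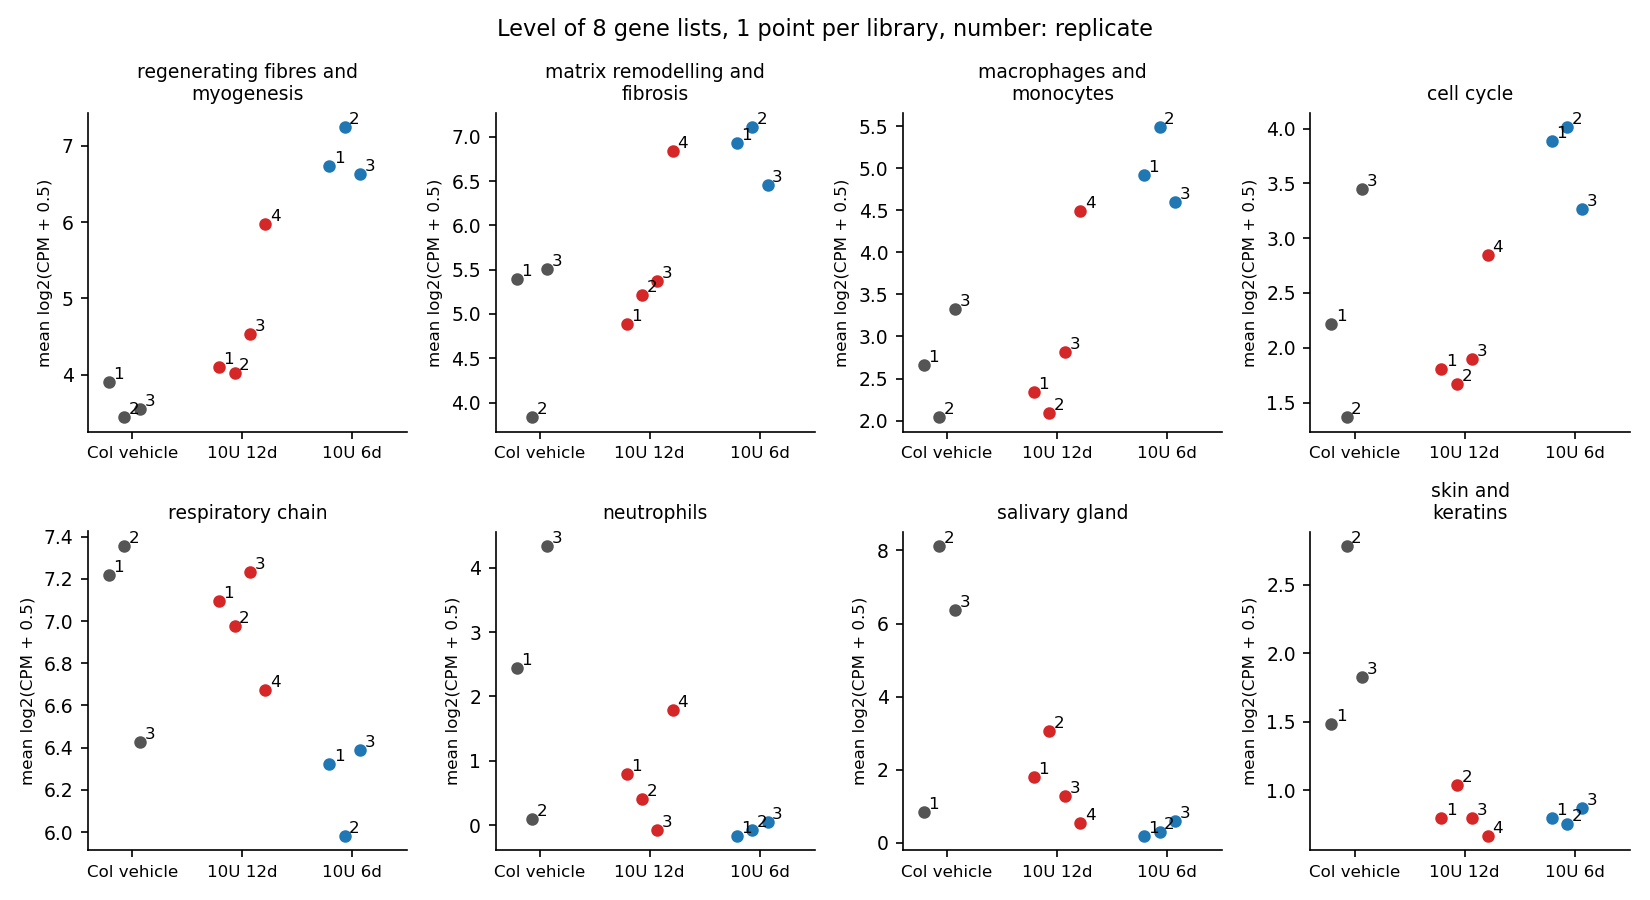
Mean log2(CPM + 0.5) of 8 gene lists in each library of vehicle, 12d and 6d, with replicate numbers beside the points. Replicate 4 of 12d is the highest of its group for regenerating fibers at 5.98 and for macrophages at 4.49, and vehicle replicate 2 is the highest of all for salivary genes at 8.12.

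Other immune genes did not pass in any number. All 18 tested neutrophil genes were lower at 12d, 10 of them at an unadjusted p under 0.05 (7.77% of all genes), and in none were the groups separate (median -3.13, or -1.41 without vehicle replicate 3). The vehicle libraries differed widely here, as in S100a8 at 74.7, 1.80 and 240 CPM against 12.4, 3, 2.91 and 29.4 CPM at 12d (-3.14, edgeR adjusted p = 0.272) and S100a9 at 116, 3.99 and 411 CPM against 19.4, 5.69, 4.47 and 50.7 CPM (-3.13, edgeR adjusted p = 0.270). Lcn2 and Cd177 had the same order in vehicle, with adjusted p of 0.142 and 0.166 in edgeR's test. Among 32 interferon-stimulated genes 27 were higher, 4 lay above vehicle in every library (9.16% of all genes) and the median was 0.39, or 0.0003 without 12d replicate 4. Ifi44 measured 1.96, 3.59 and 3.09 CPM in vehicle and 4.71, 5.01, 6.41 and 12.8 CPM at 12d (1.37, edgeR adjusted p = 0.187), and Oas2, a sensor of double-stranded RNA, 3.79 to 4.88 CPM against 5.44 to 14.5 CPM (1.04, edgeR adjusted p = 0.212). Of 32 tested chemokine and cytokine genes, unadjusted p under 0.05 held for 3 higher and 1 lower, against 9.59% and 7.77% of all genes. Their median was 0.24, and the medians of 28 dendritic cell and 10 lymphocyte genes were 0.35 and -0.46. Single libraries turned each of these, to -0.14 for chemokines and -0.23 for dendritic cells without 12d replicate 4, and to 0.66 for lymphocytes without vehicle replicate 3. Ccl11 (eotaxin) measured 27.9 to 47.4 CPM in vehicle and 21.8 to 27.4 CPM at 12d, and Ccl7, a ligand of Ccr2, 0.266 to 0.305 CPM against 0.481 to 2.67 CPM, neither past the threshold. Il4 was at 0 CPM in vehicle and at most 0.0962 CPM at 12d, and neither Il4 nor Il10 passed the filter on low counts. In the dendritic cell list Clec9a was set apart high, and Tap2 measured 29.4 to 31.4 CPM in vehicle and 20.4 to 27.0 CPM at 12d (-0.38, edgeR adjusted p = 0.246).

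Cell cycle genes were lower in 31 of 34 with a median of -0.45, 4 of them at an unadjusted p under 0.05 against 7.77% of all genes, and none was a DEG. Mcm2, a subunit of the replicative helicase, measured 23.6, 20 and 28.9 CPM in vehicle and 14.9, 12.6, 12.2 and 12.6 CPM at 12d (-0.86, edgeR adjusted p = 0.0741), and Rrm1, of ribonucleotide reductase, 59.4 to 73.1 CPM against 40.0 to 48.0 CPM (-0.58, edgeR adjusted p = 0.103). The groups were separate in both. Vehicle replicate 3 had the highest score of this list, at 3.45 against 1.37 and 2.22 in the others, and without it the median of the list was 0.38, the opposite direction.

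Genes of contraction and energy metabolism held few differences. The 40 sarcomere genes had a median of -0.19, the 83 genes of the respiratory chain -0.06 (from -0.29 to 0.13 with 1 library left out) and the 45 genes of fatty acid oxidation -0.15, with no DEG. Tmod1, which caps actin filaments, measured 541 to 643 CPM in vehicle and 174 to 335 CPM at 12d (-1.04, edgeR adjusted p = 0.107), and Myl3, a slow and cardiac myosin light chain, 0.627 to 0.872 CPM against 1.53 to 3.48 CPM (1.56, edgeR adjusted p = 0.152). Cpt1a, which admits fatty acids into mitochondria, measured 31.9 to 42.4 CPM against 19 to 31.5 CPM (-0.70, edgeR adjusted p = 0.177). Among 29 glycolysis genes 26 were lower with a median of -0.36, and Gpi1 measured 436, 436 and 441 CPM in vehicle and 315, 306, 346 and 191 CPM at 12d (-0.57, edgeR adjusted p = 0.256). Slc2a3, a glucose transporter, was at 28.9 to 32.3 CPM in vehicle and 8.69 to 34.9 CPM at 12d, and Hs3st5, a heparan sulfate sulfotransferase, at 9.44 to 12.2 CPM against 2.62 to 12.6 CPM, with adjusted p of 0.583 and 0.769 in edgeR's test. The median of 37 fat cell genes was -0.03. Ucp1, the uncoupler of brown fat, and Elovl6, a fatty acid elongase, had log2 folds of 0.83 and 0.53 and overlapping groups. Chrnb1, the β-subunit of the acetylcholine receptor of the endplate, measured 19.1 to 25.1 CPM in vehicle and 30.4 to 65.1 CPM at 12d (0.86, edgeR adjusted p = 0.210).

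Among stress genes, Ier5, an immediate early gene, measured 17.6, 17.8 and 15.5 CPM in vehicle and 29.1, 26.2, 31.6 and 32.3 CPM at 12d. The groups were separate and the adjusted p was 0.0315 in edgeR's test, but the log2 fold of 0.85 was under the threshold of 2-fold. Jund measured 31.5 to 72.2 CPM against 86.4 to 135 CPM (1.24, edgeR adjusted p = 0.116), and the co-chaperone Dnaja1 11.5 to 17.0 CPM against 22.7 to 30.3 CPM (0.95, edgeR adjusted p = 0.0697). Of vessel genes, Rgs5, a marker of pericytes, measured 156, 116 and 142 CPM in vehicle and 228, 276, 252 and 210 CPM at 12d (0.84, edgeR adjusted p = 0.0819), and Vwf, of endothelium, 99, 77 and 99 CPM against 53.6, 69.4, 42.5 and 37.2 CPM (-0.83, edgeR adjusted p = 0.143). Medians of the other lists of stress and signaling genes were 0.37 for 24 immediate early genes, 0.02 for 27 heat shock and folding genes, 0.10 for 24 genes of atrophy and growth control (1 DEG, Cebpb), 0.05 for 21 pain mediators (1 DEG, Ptgds) and 0.05 for 25 vessel genes. Without 12d replicate 2 they were 0.08 for immediate early genes and -0.07 for atrophy and growth control, and without vehicle replicate 3 the median was -0.11 for heat shock and folding genes.

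The lists of connective and neighboring tissue held no DEG. Medians were 0.59 for 38 collagens, 0.02 for 20 fibroblast genes, 0.24 for 16 tendon and cartilage genes, 0.28 for 14 bone genes, -0.62 for 17 peripheral nerve genes, -1.81 for 8 blood genes and 0.18 for 18 genes of the neuromuscular junction. Without 12d replicate 4 the medians were -0.12 for collagens, -0.24 for fibroblasts, -0.31 for tendon and cartilage, -0.37 for bone and 0.08 for the neuromuscular junction. Without vehicle replicate 2 they were 0.23 for collagens, -0.04 for tendon and cartilage, -0.23 for bone and 0.04 for peripheral nerve, and without vehicle replicate 3 -0.69 for blood. In the bone list they ranged from -0.37 to 0.84 over the 7 fits that left out 1 library. Scx, a transcription factor of tendon, measured 10.6, 4.86 and 7.52 CPM in vehicle and 11.8, 15.1, 13.2 and 29.2 CPM at 12d (1.21, edgeR adjusted p = 0.195), and was higher in 4 of 4 libraries. Chad, a cartilage matrix protein, was at 9.44 to 43.1 CPM in vehicle and 5.75 to 10.1 CPM at 12d, with overlap (-1.83, edgeR adjusted p = 0.121). Col28a1 measured 3.04 to 4.46 CPM in vehicle and 4.67 to 12.6 CPM at 12d (1.07, edgeR adjusted p = 0.202). Gsn, an actin-severing protein abundant in fibroblasts, was lower in every library of 12d, at 1114 to 1739.7 CPM against 1751 to 3540.3 CPM (-0.82, edgeR adjusted p = 0.236), as was Pcolce2, an enhancer of procollagen processing, at 5.84 to 11.5 CPM against 11.6 to 28.3 CPM (-1.08, edgeR adjusted p = 0.178). Sox10, of Schwann cells and also of salivary gland, measured 8.5 CPM in vehicle replicate 1 but 67.5 and 31.8 CPM in replicates 2 and 3, against 7.24 to 10.5 CPM at 12d, and its sign turned against vehicle replicate 1 alone. Asns, an enzyme of asparagine synthesis that is high in exocrine tissue, had the same order in vehicle and turned as well. Alas2, the heme synthesis enzyme of red cell precursors, had a log2 fold of -2.48 and overlapping groups (edgeR adjusted p = 0.121). Bone genes were spread in vehicle, as in Sost, the osteocyte inhibitor of bone formation, at 5.75, 0 and 23.9 CPM, against 0.0481, 0.122, 0.269 and 4.30 CPM at 12d, and Dmp1, with overlapping groups (-0.93). Fbn2, Col17a1, Hk1 and Hdac9 also overlapped between the groups.

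The same libraries of 12d were also compared with 6d, when the fibers were regenerating. This comparison shares the 12d libraries through which the genes above were chosen, so its values are given side by side. Of 14344 genes tested, 680 were higher (4.74%) and 757 lower (5.28%) at 12d. Of the 51 DEGs left, 44 were tested against 6d. Of these, 7 up-regulated DEGs were higher at 12d than at 6d (2410127L17Rik, E130201H02Rik, Cebpb, Gt(ROSA)26Sor, Kitl, Olfr558 and Cav2), 3 down-regulated DEGs were lower (Mad1l1, Ino80e and Ppib), and none was called in the opposite direction. For Cebpb, Kitl and Cav2 the log2 folds over 6d were 2.12, 1.10 and 1.37. By list, at 12d 13 of the genes of regenerating fibers were lower than at 6d and none higher (median -1.85), among them Myh3 by -3.80, the fetal acetylcholine receptor subunit Chrng by -4.97 and Myog, a factor of myoblast differentiation, by -2.78. Of cell cycle genes 24 were lower and none higher, and of macrophage genes 17 were lower and 3 higher. Respiratory chain genes were higher in 27 and lower in 1. Hence Myog, at 216, 281 and 189 CPM at 6d, stood at 11.4, 10.0, 20.7 and 89.8 CPM at 12d and at 7.71, 8.31 and 3.31 CPM in vehicle, above every vehicle library and below every library of 6d. Per1 was higher at 12d than at 6d by 1.73 and Cry1 by 1.44, and Dbp was lower in every library of 12d than at 6d with a log2 fold of -0.64 (edgeR adjusted p = 0.0449), under the threshold of 2-fold.

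How far the count of DEGs rested on single libraries was read by leaving out each in turn. With 12d replicate 3 left out, 3 up-regulated and 3 down-regulated DEGs were left, and with vehicle replicate 3 left out, 233 and 24. Leaving out vehicle replicate 1 gave 10 and 93, vehicle replicate 2 gave 13 and 6, and 12d replicate 4 gave 36 and 16. Leaving out 12d replicates 1 and 2 gave 6 and 5, and 9 and 7. With vehicle replicates 2 and 3, the 2 with salivary transcripts, both left out, edgeR's test took all its spread from the 12d libraries and assumed that the lone vehicle library varies like them. It left 1 up-regulated and no down-regulated DEG. Without adjustment 2065 genes had a p under 0.05, and the count from this fit says nothing about stability. All 28 up-regulated DEGs kept their direction in each of these fits, as did the down-regulated ones wherever they were tested.

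**Figure D5:**
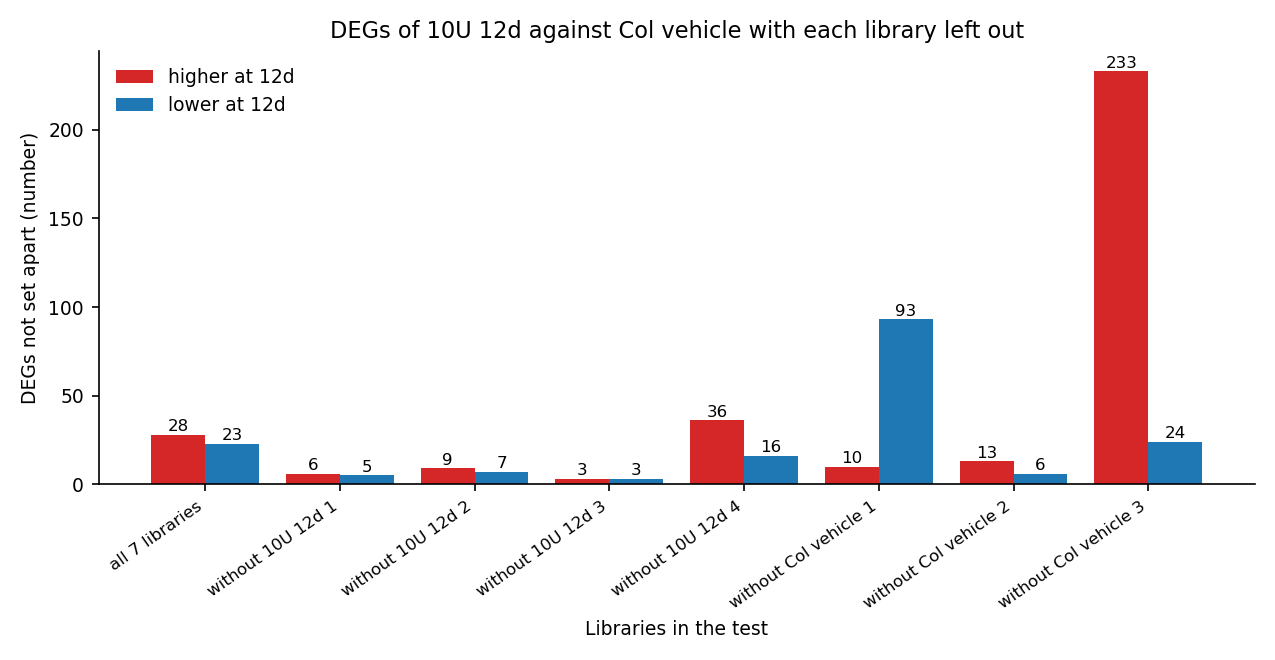
Number of DEGs that were not set apart, up-regulated and down-regulated, with all 7 libraries (28 and 23) and with each library left out. The count runs from 3 and 3 without replicate 3 of 12d to 233 up-regulated DEGs without vehicle replicate 3 and 93 down-regulated DEGs without vehicle replicate 1.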

How the data were processed

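Total RNA of whole MM was made into stranded poly(A) libraries (Illumina TruSeq). Per the labels, the authors aligned reads to mm9 with TopHat2 and counted them per gene with HTSeq, and deposited 1 table of raw read counts per library (no versions given). Reads aligning to more than 1 place were not counted, so near-identical genes are uncertain. Closing lines with unassigned reads were kept out of library sizes and tests.

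From the counts, edgeR 4.0.16 (R 4.3.3) with TMM factors and its quasi-likelihood test compared 4 libraries of 12d with 3 of vehicle by group alone, with Benjamini-Hochberg adjustment. The standard error was the log2 fold change over the square root of F. Printed CPM were scaled by TMM over all 31 libraries. RPKM used exon lengths of an mm9 gene annotation (GENCODE), matched for 21627 symbols directly and 52 by synonym, and the median of 2837 bp for 930 others. Where every library of a group held at most 3 counts, a fold was given as a lower bound against 3 counts per library. No 2 libraries were identical (465 pairs). The analysis was tested on simulated counts over 14028 genes, where 65 of 98 genes changed by 2 on the log2 scale and 9 of 98 changed by 1 were recovered, with 7 of 81 calls wrong. A call there was an adjusted p under 0.05 alone, without the thresholds on fold and RPKM. No simulated library differed from its group as some real ones did, so these rates do not carry over to the DEGs. Intervals of depth cover counting error only.

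The genes and lists were chosen with earlier results of these data known. Named were the 10 largest changes in each direction among DEGs left with separate groups, the DEGs of each list or else its 2 smallest p, the 5 largest genes set apart in each direction, and genes that the study names (of these Ly6g has no counts under that symbol here). DESeq2 1.42.0, other scalings, filters, references, a replicate block and left-out libraries were the alternatives. CFA and 0.2U libraries served only as levels beside the comparison or as such a reference. Promoters came from RefSeq. A few genes that the naming rule covers are not reported here.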

Additional observations from a re-analysis of the deposited data

Results flagged for a closer look

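Among 49 values of 4 libraries each, 8 had 1 library of 12d far from the other 3, where the critical value used (Dixon's, at the 95% level) marks about 1 in 20 groups of normally distributed values. Of these 8, 3 are a few counts against 0 in the other libraries, to which that rate does not apply. The mean log2 CPM of the glycolysis list was 6.53 in replicate 4 against 7.37 to 7.44 in the others, and that of the bone list was 4.69 in replicate 4 against 2.71 to 2.88. For single genes, 9330133O14Rik was at 2.80 CPM in replicate 3 (others 2.07 to 2.13), Pglyrp1 at 1.86 CPM in replicate 4 (others 0.673 to 0.734) and Lgals7 at 1.28 CPM in replicate 2 (others 0.337 to 0.431). Ttr at 0.183 CPM and Amelx at 0.0612 CPM in replicate 2, and Cplx3 at 0.0453 CPM in replicate 4, stood against 0 CPM in the other libraries of 12d and rest on 3 counts or fewer.

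Of the 20 DEGs with the largest changes, 3 also passed the DEG thresholds between 12d and 6d. Their log2 folds of 12d over 6d were 2.41 for 2410127L17Rik, 2.88 for E130201H02Rik and 2.12 for Cebpb. Ttr, Rbp3, Cplx3, Chrnb4, Amelx and Chgb of these DEGs were not tested against 6d. The share of reads marked ambiguous, which no comparison uses, was at least 0.641% at 12d and at most 0.260% in the 20 libraries outside 10U.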

How the results depend on the processing

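With all libraries, 114 genes were DEGs and 28 up-regulated and 23 down-regulated ones were left after genes were set apart. DESeq2 gave 387, 143 and 163, a fit over all 31 libraries 289, 137 and 72, and both vehicle groups pooled 183, 89 and 14 (73.8% of all calls up, against 57.9%). Leaving out 1 library gave 36 to 334 DEGs, 3 to 233 up-regulated and 3 to 93 down-regulated ones left, with 26.9% of calls up without vehicle replicate 1 and 84.1% without vehicle replicate 3. The replicate numbers did not pair the samples (correlations of -0.059, 0.338 and -0.391, and 1 of 3 libraries correlated best with its own number), and a replicate block gave 41, 8 and 7. Setting genes apart on CPM without TMM left 35 down-regulated DEGs, and setting none apart left 66 and 48. Of alternatives added after seeing the data, vehicle 2 and 3 both left out gave 5, 1 and 0 with the lone vehicle library assumed to vary like 12d, and also setting apart genes within 5000 bp of one on the opposite strand left 17 and 12. CFA vehicle as the reference gave 33 and 16, but called only 8 of the 28 and 3 of the 23 again. For 12d against 6d (1437 DEGs), the range without 1 library was 132 to 2739, and the replicate block gave 2760. Directions turned for 10 genes. Without vehicle 2 and 3 the log2 folds were 2.39 for Arg1, 0.40 for Asns, 0.17 for Sox10 and 0.66 for Amy1, and against CFA vehicle 0.24 for Chad, 6.65 for Krt1, 4.11 for Dmkn, 10.48 for Krt2, 2.35 for Asprv1 and 6.47 for Calm4. The causes were not tested. DESeq2's size factors, no filter on low counts, no RPKM threshold and the remaining settings kept the count of DEGs within 1.5 times. The smaller depth of 12d and the wide spread limit calls near 2-fold, of which the simulation recovered few.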
